A study of Homo sapiens with 6 samples.

Results

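The genes described here encode the subunits of heterotrimeric G proteins and the RGS proteins (regulators of G protein signalling). They were chosen by symbol: the rule takes the G protein alpha, beta and gamma subunit genes and the numbered RGS genes with the 2 RGS-binding anchor genes, and it matched 55 of the 59050 symbols in the count files. These are 16 alpha, 5 beta and 11 gamma subunit genes, 21 RGS genes and 2 genes of RGS anchor proteins. The symbols GNG1, GNG6, GNG8 and GNG9, which the rule also names, matched no row. The family was selected on earlier results of the same knockout-against-parental comparison. Fold changes and calls of its members are therefore given as a description of these libraries, with no p-value for a single member and none for the family.

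RNA-seq was run on H2122 cells, an established line of human lung cancer. The SMARCA4 knockout group (3 libraries) and the parental group, whose genotype is labelled WT (3 libraries), both came from vehicle-treated cells grown in RPMI-1640 with heat-inactivated serum and antibiotics. SMARCA4, also known as BRG1, is a motor subunit of the SWI/SNF complexes that move nucleosomes. The number behind the group name in the titles is 1 for all 3 knockout libraries, while the parental libraries carry 1, 3 and 6, and what it counts is not stated. Whether the knockout libraries are 1 clone, and whether replicates are separate cultures, is likewise not given, so the spread between them may be technical.

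A heterotrimeric G protein is held at the inner face of the plasma membrane as an alpha subunit with bound GDP and a beta-gamma dimer. An activated receptor exchanges the GDP for GTP, and alpha and beta-gamma then act on separate effectors: alpha s raises and alpha i lowers cAMP, alpha q turns on phospholipase C beta, and alpha 12 and 13 act on RhoGEFs. RGS proteins end the signal by speeding up GTP hydrolysis on the alpha subunit. In carcinoma cells these proteins relay, among others, prostaglandin, lysophospholipid, chemokine and protease signals.

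Libraries held 55120937 to 59917980 reads assigned to genes, and 3 reads, taken as the limit of detection, equal 0.0497 to 0.0544 CPM (read counts relative to the TMM-scaled library size). SMARCA4 itself had 1171, 1062 and 1504 reads in the knockout libraries, against 13222, 12809 and 19050 in the parental ones. Parental replicate 3 stood apart. Its counts differed from those of parental replicates 1 and 2 by a chi-square per degree of freedom of 409 and 426, against 6.08 to 23.0 for every other pair within a group. Results are given with all 6 libraries, and again without this library where it moves them. Of the epithelial markers EPCAM, KRT7, KRT8, KRT18 and KRT19, summed levels were 3151 to 3417 CPM in knockout and 6490 to 7560 CPM in parental libraries, and no marker was at 0. In bulk RNA, fewer cells with a transcript and less of it per cell cannot be told apart.

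Of the 55 genes, 52 had at least 1 read and 39 had enough reads to be tested. With edgeR's quasi-likelihood test and Benjamini-Hochberg adjustment over all 17809 genes tested, 13 of these 39 passed an adjusted p of 0.05, which is 33.3% of them, against 27.6% of all genes tested. Rising genes numbered 4, where 13.3% of all genes tested rose, and falling genes numbered 9, where 14.3% of all genes tested fell. The median log2 fold change over the 39 genes was -0.04, against 0.02 over all genes. Knockout and parental libraries did not overlap in 23 of the 39 genes, or 59%, against 49.8% of all genes tested. Without parental replicate 3, 26 of the 39 passed (66.7%, against 61.6% of all genes), 11 rising and 15 falling, and all 13 genes called with 6 libraries were still called. Without knockout replicate 1, 2 or 3, in that order, 8 of 40, 9 of 40 and 7 of 39 tested members passed (20%, 22.5% and 17.9%), against 15.1%, 14.6% and 15.2% of all genes tested. As the family was chosen with this comparison known, nothing is read from these shares.

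The genes that rose were GNG11, GNGT1, GNG7 and RGS11. Those that fell were RGS6, RGS4, RGS16, GNG2, GNA15, RGS17, RGS20, RGS9 and GNAI3. By role, 0 of 5 tested beta genes, 2 of 12 tested alpha genes, 4 of 7 tested gamma genes and 7 of 14 tested RGS genes passed. The share over all genes tested was 27.6%. Among the called gamma genes, GNGT1, GNG7 and GNG2 had at most 37 reads in any library. Without parental replicate 3 the counts by role were 2 of 5, 7 of 12, 5 of 7 and 12 of 14, against 61.6% of all genes tested. Nothing is read from these counts either.

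**Figure D1:**
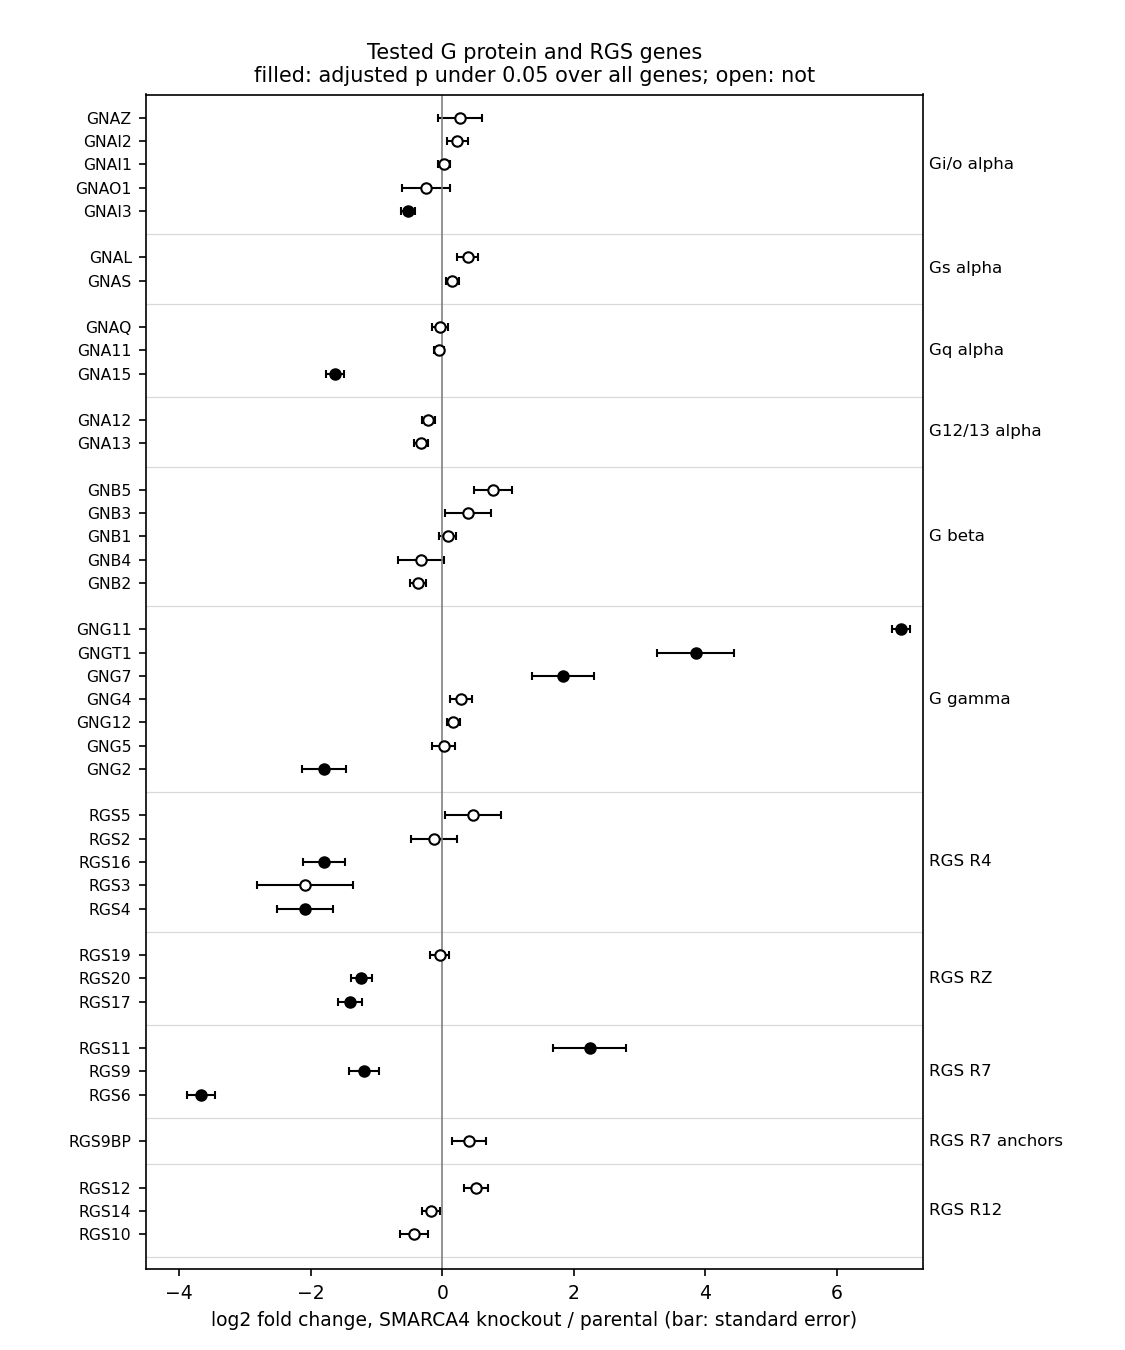
Log2 fold change of the SMARCA4 knockout over the parental group (x axis, log2 scale) for the 39 tested genes, grouped by role, with bars for the standard error; filled points passed the adjusted threshold of 0.05 over all genes. GNG11 lies farthest to the right at 6.97 and RGS6 farthest to the left at -3.67, and the GNGT1 value rests on 3 parental reads.

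The 4 promoter stretches are shown because their genes carry the 2 largest rises and the 2 largest falls among called genes with a single promoter entry: GNG11 and GNGT1, which rose and lie next to each other on chromosome 7, and RGS16 and RGS17, which fell. Each runs 5′ to 3′ on the gene's strand from 250 to 51 bases before the RefSeq start, on GRCh38.p14, with bases of a searched motif in capitals.
GNG11: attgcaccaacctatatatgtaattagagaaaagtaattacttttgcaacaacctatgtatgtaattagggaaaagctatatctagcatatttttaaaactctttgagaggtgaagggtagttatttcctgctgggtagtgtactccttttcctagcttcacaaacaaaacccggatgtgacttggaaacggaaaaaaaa
GNGT1: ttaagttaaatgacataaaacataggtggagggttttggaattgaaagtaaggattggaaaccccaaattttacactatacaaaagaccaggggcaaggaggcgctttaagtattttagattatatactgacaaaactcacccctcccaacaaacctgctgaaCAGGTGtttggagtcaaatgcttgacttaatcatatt
RGS16: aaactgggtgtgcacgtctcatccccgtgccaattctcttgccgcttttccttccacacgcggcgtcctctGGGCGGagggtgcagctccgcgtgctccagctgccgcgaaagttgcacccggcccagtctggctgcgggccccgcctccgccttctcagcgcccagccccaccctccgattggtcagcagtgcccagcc
RGS17: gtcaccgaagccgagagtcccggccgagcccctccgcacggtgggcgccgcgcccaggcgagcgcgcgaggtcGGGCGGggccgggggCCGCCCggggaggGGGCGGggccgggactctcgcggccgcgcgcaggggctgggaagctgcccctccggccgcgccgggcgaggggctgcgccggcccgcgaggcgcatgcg
The positions are chr7:93921485-93921684 (plus strand) for GNG11, chr7:93906317-93906516 (plus) for GNGT1, chr1:182604440-182604639 (minus) for RGS16 and chr6:153131333-153131532 (minus) for RGS17. For GNGT1 this RefSeq start lies inside the GENCODE gene record, which begins farther upstream. The bases G and C made up 34.5% of the GNG11 stretch and 37% of the GNGT1 stretch, against 68% for RGS16 and 85% for RGS17, and the median over 35116 promoter stretches of the same length was 57.5%.

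The motifs searched, on both strands, were AP-1 (TGANTCA), the cAMP response element (TGACGTCA), an E-box (CACCTG), a GC box (GGGCGG) and a TATA element (TATAAA). They occurred in 5.27%, 0.951%, 14.9%, 35% and 7.63% of all promoter stretches, in that order. The GNG11 stretch held none of them. Bases closer than 51 to a gene's start were not searched, so a TATA element or other motif there would be missed. The GNGT1 stretch held 1 E-box, RGS16 held 1 GC box and RGS17 held 3 GC boxes. Such matches are a description of letters, not of bound sites. RefSeq promoter entries were found for 47 of the 55 genes and for 10 of the 13 called ones.

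Among the alpha subunits, GNA15 fell and the widely expressed members did not pass the test, GNAI3 excepted. GNA15 encodes a Gq-class subunit that couples a broad range of receptors to phospholipase C and is best known from blood cells. Its reads were 759, 742 and 771 in knockout libraries and 2493, 2652 and 1955 in parental libraries. The 2 groups were far apart, and the lowest parental library was the third. Mean levels were 13.2 ± 0.390 CPM in knockout libraries against 40.8 ± 5.58 CPM in parental libraries (SD, n = 3 each), a log2 fold change of -1.63 (SE 0.13). Leaving out any 1 library kept the call, with values between -1.78 and -1.57.

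The other Gq-class genes gave values close to 0 with all libraries. GNAQ averaged 72.0 CPM in knockout and 74.0 CPM in parental libraries (log2 fold change -0.04, SE 0.12), and GNA11, which lies beside GNA15 on chromosome 19, averaged 86.2 CPM in knockout and 89.1 CPM in parental libraries (-0.05, SE 0.08). GNA14, the last member of the class, had 1 read in the knockout libraries together, in replicate 3, and 4, 3 and 10 in the parental ones. That is a parental level 16.7 times the knockout level, with a 95% counting interval from 2.62 to 700. Such intervals cover counting error only. The limits given for genes without reads in 1 group leave out the counting error of the other group.

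Inhibitory alpha subunits of the Gi/o class lower cAMP. GNAI3, a ubiquitous member, had 3710, 3612 and 3656 reads in knockout libraries, against 4861, 5186 and 5845 in parental libraries. Every knockout library was below every parental one, and the log2 fold change was -0.52 (SE 0.11). The call was lost when any 1 knockout library was left out, at values between -0.53 and -0.47. GNAI2, the class member with most reads, averaged 217 ± 2.63 CPM in knockout libraries against 185 ± 34.7 CPM in parental libraries (0.23, SE 0.16). Its value was 0.03 without parental replicate 3. GNAI1 averaged 72.1 CPM in knockout and 70.7 CPM in parental libraries (0.03, SE 0.09).

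The low members of this class were mixed. GNAZ (0.27, SE 0.33) and GNAO1 (-0.25, SE 0.36) averaged between 0.961 and 1.93 CPM in either group and did not pass with 6 libraries. The sign of GNAO1 turned without parental replicate 3, at 0.22, and it was not called there either. The transducin and gustducin genes GNAT1, GNAT2 and GNAT3, which serve vision and taste, were under the filter. GNAT3 had 8, 7 and 7 knockout reads, against 0, 1 and 3 parental reads. GNAT1 had no more than 2 reads in any library, and GNAT2 no more than 5, and all annotated exon bases of GNAT2 overlap GNAI3 or AMPD2 on the other strand. How reads were assigned by strand is not given in the sources used here.

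Stimulatory and G12/13 subunits did not pass with 6 libraries. GNAS, which encodes the main stimulatory subunit, had the most reads of the whole family, with 802 ± 32.3 CPM in knockout libraries against 724 ± 15.8 CPM in parental libraries (0.15, SE 0.10). GNAL, the olfactory form, averaged 43.1 CPM in knockout and 32.8 CPM in parental libraries (0.39, SE 0.16), and 28.1% of its exon bases overlap genes on the other strand. GNA12 averaged 86.3 ± 2.67 CPM in knockout libraries against 99.7 ± 6.5 CPM in parental libraries (-0.21, SE 0.10), and GNA13 73.1 ± 3.73 CPM in knockout and 91.1 ± 8.57 CPM in parental libraries (-0.32, SE 0.11). In both of these RhoGEF-coupled genes every knockout library was below every parental one. Without parental replicate 3 they were called as falling, at -0.31 and -0.44, as was GNAQ at -0.17, while GNAL (0.52) and GNAZ (0.58) were called as rising.

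No beta subunit gene passed with 6 libraries, where 27.6% of all genes tested passed. GNB1 and GNB2 encode the common beta subunits that pair with most gammas. GNB1 averaged 516 ± 17.3 CPM in knockout libraries against 487 ± 60.3 CPM in parental libraries (0.08, SE 0.13), with the sign turned to -0.07 without parental replicate 3. GNB2 averaged 216 ± 7.10 CPM in knockout and 278 ± 31.9 CPM in parental libraries (-0.37, SE 0.12), and was called as falling with RLE scaling (-0.42), with DESeq2 (-0.42) and without parental replicate 3 (-0.32). GNB3 (0.39, SE 0.35) reached at most 1.16 CPM in any library. GNB4 (-0.33, SE 0.35) had 5151 reads in parental replicate 3, against at most 2656 in any other library, and stood at 0.14 without it. Of its exon bases, 27.6% overlap a gene on the opposite strand.

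GNB5 encodes the divergent beta subunit that pairs with the R7 class of RGS proteins in place of a gamma subunit. Its reads were 5505, 5284 and 5668 in knockout libraries and 3812, 4132 and 1834 in parental libraries. All knockout libraries were above all parental ones, and parental replicate 3 was the lowest. The log2 fold change of 0.77 (SE 0.29) did not pass the test with 6 libraries. Without parental replicate 3 it was 0.45 and was called as rising.

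The largest change of the family was in a gamma subunit. GNG11 (chromosome 7, 93921699 to 93928610 on GRCh38, plus strand) encodes a gamma subunit that carries a farnesyl lipid, where most gammas carry a geranylgeranyl group. It had 7974, 7798 and 8087 reads in the knockout libraries, against 64, 58 and 69 in the parental libraries. The libraries of each group lay close together, and nothing lay between the groups. Mean levels were 139 ± 4.23 CPM in knockout libraries against 1.10 ± 0.122 CPM in parental libraries, a log2 fold change of 6.97 (SE 0.14), or 126-fold. The value lay between 6.89 and 7.01 when any 1 library was left out, and no exon base of the gene overlaps another annotated gene.

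Its neighbour GNGT1, the gamma subunit of rod transducin, had 13, 16 and 19 reads in knockout libraries and 2, 1 and 0 in parental libraries. The gene was called as rising at a very low level. The knockout level was 16.2 times the parental level, with a 95% counting interval from 5.24 to 81.5.

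GNG7, known from striatal neurons of mice as a partner of the olfactory alpha subunit, had 33, 14 and 32 reads in knockout and 4, 8 and 10 in parental libraries. Its log2 fold change was 1.83 (SE 0.47), and it no longer passed once knockout replicate 1 or 3 or parental replicate 1 or 2 was left out. GNG2, a common partner of GNB1, had 5, 12 and 12 knockout reads, against 31, 37 and 35 parental reads. It fell by 1.80 on the log2 scale (SE 0.34) and remained called without any 1 library.

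The gamma genes that supply most reads in parental cells did not pass. GNG12 averaged 79.9 ± 5.38 CPM in knockout libraries against 71.0 ± 3.74 CPM in parental libraries (0.17, SE 0.10). GNG5 averaged 11.1 ± 0.632 CPM in knockout and 10.9 ± 2.05 CPM in parental libraries (0.02, SE 0.17), with 41.6% of its exon bases shared with other annotated genes. GNG4 averaged 6.09 ± 0.360 CPM in knockout and 5.02 ± 0.866 CPM in parental libraries (0.28, SE 0.17) and was called as rising, at 0.38, without parental replicate 3. GNG10 had 4 to 10 reads in any library, and 73.1% of its exon bases are shared on the same strand with the DNAJC25-GNG10 readthrough gene, so its count is uncertain. GNG3 and GNG13 had at most 2 reads in any library. GNGT2, the cone transducin gamma gene, had 0 reads in the knockout libraries and 2, 10 and 4 in the parental ones. Against a limit of 3 reads over the group, GNGT2 was at least 5.25-fold lower if the parental total is taken as exact.

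Per length of annotated exon, the sum over the 11 gamma genes was 74.7, 76.0 and 70.6 CPM per kilobase in knockout libraries, against 27.3, 27.8 and 24.1 in parental libraries. All knockout sums were above all parental sums. The alpha sum was 161, 158.5 and 153 in knockout and 172, 168.5 and 153 in parental libraries. The beta sum was 176, 167.5 and 166 in knockout and 184, 183 and 191 in parental libraries.

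GNG11 supplied 61.6 ± 0.572% of the gamma sum in knockout libraries, against 1.38 ± 0.255% in parental libraries (SD, n = 3 each). GNG12 supplied 22.9 ± 0.725% in knockout and 57.1 ± 3.44% in parental libraries. For GNG5 the shares were 13.5 ± 0.592% in knockout and 37.0 ± 4.46% in parental libraries. Their own levels per length overlapped between the groups. GNG12 stood at 15.6 to 17.6 CPM per kilobase in knockout and 14.4 to 15.9 in parental libraries, and GNG5 at 9.59 to 10.6 in knockout and 7.91 to 11.6 in parental libraries. With the median length of protein-coding transcripts in place of pooled exons, a choice made after the data were seen, GNG11 supplied 56.2% in knockout and 1.10% in parental libraries. Within the alpha sum, the share of GNA15 was 3.21 ± 0.0366% in knockout and 9.47 ± 0.763% in parental libraries, or 0.959% in knockout and 3.13% in parental libraries with the transcript length.

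**Figure D2:**
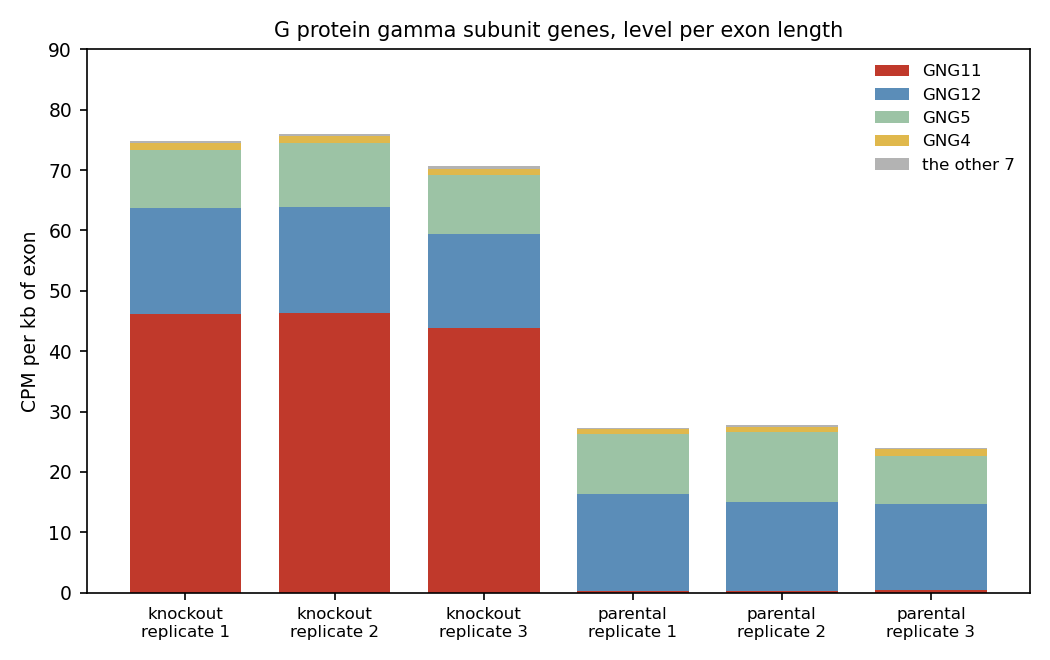
CPM per kilobase of annotated exon (y axis) of the 11 G protein gamma genes, stacked for each of the 6 libraries, knockout libraries on the left. The knockout columns reach 70.6 to 76.0 and the parental columns 24.1 to 27.8, and GNG11 makes up 61.6% of the knockout columns on average.

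The nearest neighbours of GNG11 rose as well, where 13.3% of all genes tested rose. The protein-coding genes within 500 kb were looked up by position, after the GNG11 values had been seen. Their p-values are therefore given as description only. TFPI2, which encodes a secreted Kunitz-type protease inhibitor, lies 30.7 kb away on the opposite strand. It had 187200, 184471 and 183374 reads in knockout libraries and 2076, 1910 and 471 in parental libraries, and its log2 fold change was 6.98 (SE 0.65, edgeR adjusted p = 0.00072). GNGT1 ends 10.4 kb from GNG11, and 1.86% of its exon bases overlap TFPI2 on the opposite strand. The part of TFPI2 reads in the GNGT1 count was not tested.

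The remaining genes within 500 kb changed less or had few reads. BET1, a SNARE of transport between endoplasmic reticulum and Golgi, lies 34.2 kb from GNG11 on the other side. It had 2659, 2989 and 2871 reads in knockout libraries and 1834, 1821 and 1109 in parental libraries (0.86, SE 0.20, edgeR adjusted p = 0.0252), and its call was lost when any 1 knockout library was left out. CALCR, 347 kb away, had at most 3 reads in any library. COL1A2, 466 kb away, had 1, 1 and 0 knockout reads and 3, 2 and 10 parental reads. The same look-up around GNA15, which fell, gave called genes in both directions, such as TLE2 (3.40) and FZR1 (-0.67).

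**Figure D3:**
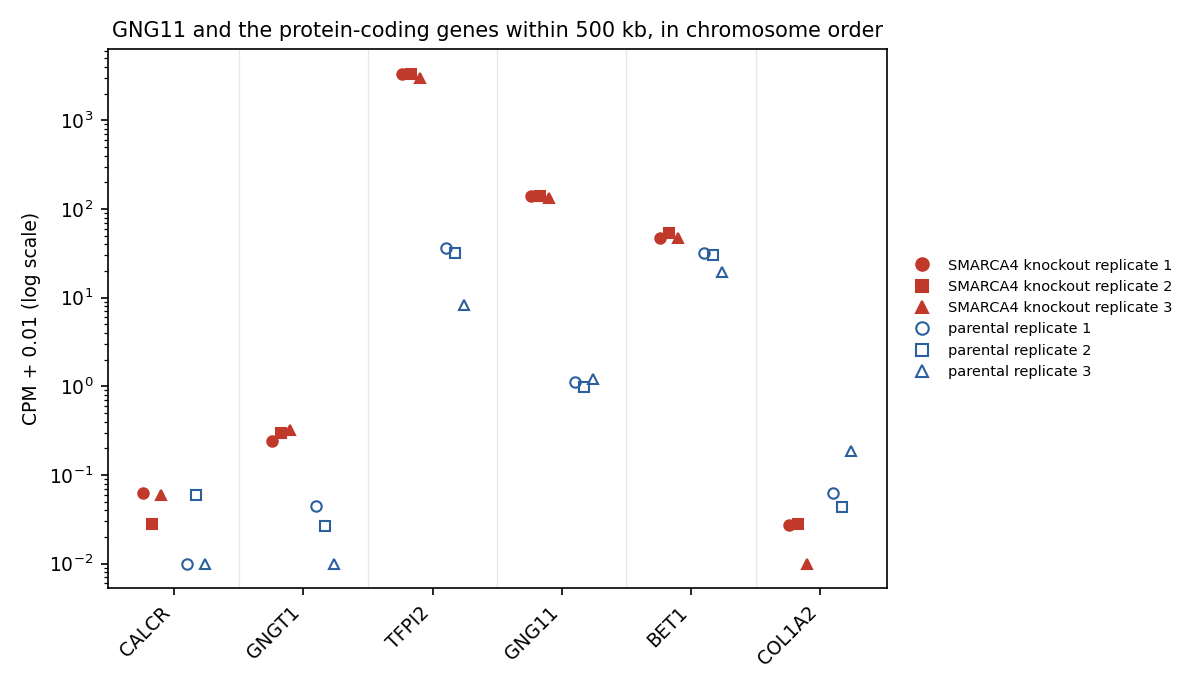
CPM plus 0.01 (y axis, log scale) of GNG11 and the 5 protein-coding genes within 500 kb, in chromosome order, with 1 point per library and knockout points left of parental points. The groups separate, with knockout libraries higher, in GNGT1, TFPI2, GNG11 and BET1, and at a few reads, with knockout libraries lower, in COL1A2. TFPI2 has the most reads, at 3037 to 3348 CPM in knockout libraries.

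RGS proteins of the R4 class are small and act on Gi/o and Gq alpha subunits. RGS16 had 242, 184 and 205 reads in knockout libraries, against 574, 546 and 1086 in parental libraries. The groups did not overlap, and parental replicate 3 was highest. Mean levels were 3.67 ± 0.527 CPM in knockout libraries against 12.8 ± 5.51 CPM in parental libraries (-1.80, SE 0.32). Without parental replicate 3 the value was -1.43, and of the single libraries left out, only knockout replicate 3 ended the call, at -1.74.

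RGS4, best known from brain, had 4, 6 and 5 reads in knockout and 27, 27 and 12 in parental libraries. It fell by 2.09 on the log2 scale (SE 0.43), and the call was lost when any 1 knockout library was left out. RGS2, which acts mainly on Gq, is the R4 gene with most reads, and parental replicate 3 decided its value. Its reads were 2203, 2081 and 2147 in knockout libraries and 1672, 1637 and 3755 in parental libraries. The log2 fold change was -0.13 (SE 0.35) with all libraries and 0.35, called as rising, without parental replicate 3.

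Parental replicate 3 also stood apart in RGS3, which acts on Gq and Gi. The gene had 277, 238 and 284 knockout reads and 495, 413 and 2462 parental reads, so that the groups did not overlap. The log2 fold change was -2.08 (SE 0.73) and did not pass, and without parental replicate 3 it was -0.79 and passed. It also passed with DESeq2, at -2.13, and without parental replicate 2, at -2.49. RGS5, known as a marker of pericytes, had 121, 105 and 119 knockout reads, against 48, 59 and 143 parental reads (0.47, SE 0.43, and 1.08 without parental replicate 3, where it was called).

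Several R4 genes were near or at 0. RGS18, known from platelets and their precursors, had 0 reads in the knockout libraries and 22, 10 and 2 in the parental libraries. Against a limit of 3 reads over the group, that is at least 11.2-fold lower if the parental total is taken as exact. RGS8 also had 0 knockout reads, with 0, 3 and 2 parental reads. RGS1, RGS13 and RGS21 had no read in any library.

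The RZ class acts on Gz and Gi alpha subunits, and 2 of its 3 members fell, where 14.3% of all genes tested fell. RGS17 had 29, 31 and 34 reads in knockout libraries, against 82, 79 and 89 in parental libraries (-1.40, SE 0.18). RGS20 had 408, 413 and 401 knockout reads and 1026, 1109 and 769 parental reads (-1.23, SE 0.16). Neither gene's groups overlapped, and both remained called without any 1 library. RGS19, the third member, averaged 15.7 ± 0.875 CPM in knockout libraries against 16.2 ± 2.17 CPM in parental libraries (-0.04, SE 0.14).

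R7 proteins bind GNB5 and act on Gi/o alpha subunits, and the 3 tested members moved in both directions. RGS6, which limits vagal slowing of the heart in mice, had 40, 31 and 32 reads in knockout and 494, 468 and 367 in parental libraries. Knockout libraries were far below parental ones, averaging 0.60 ± 0.0943 CPM in knockout and 7.65 ± 1.11 CPM in parental libraries, and the log2 fold change was -3.67 (SE 0.21). The value lay between -3.83 and -3.57 without any 1 library.

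RGS9, the form of photoreceptors and striatum, had 86, 85 and 75 knockout reads and 143, 197 and 229 parental reads (-1.19, SE 0.23). Its call was lost when any 1 knockout library was left out. RGS11, the retinal ON-bipolar cell form, had 359, 441 and 667 reads in knockout libraries and 115, 166 and 33 in parental libraries. Both groups were widely spread without overlap, at 8.47 ± 2.38 CPM in knockout libraries against 1.79 ± 1.12 CPM in parental libraries. Its log2 fold change was 2.24 (SE 0.56), and the call was lost when any 1 knockout library or parental replicate 1 was left out. Of its exon bases, 13.5% overlap genes on the opposite strand.

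RGS7, the remaining R7 gene, was under the filter, with 0, 1 and 0 knockout reads and 0, 11 and 9 parental reads. The parental level was 19.7 times the knockout level, with a 95% counting interval from 3.15 to 817. The R7 anchors hold these complexes at the membrane. RGS9BP had 24, 18 and 21 reads in knockout and 14, 20 and 14 in parental libraries (0.41, SE 0.26), with 28.1% of its exon bases overlapping a gene on the opposite strand. RGS7BP had 1, 0 and 0 knockout reads and 3, 5 and 2 parental reads, a ratio of 9.85 parental to knockout with an interval from 1.40 to 427.

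None of the 3 R12 genes passed with 6 libraries, where 27.6% of all genes tested passed. RGS12 and RGS14 carry a second motif that binds GDP-bound alpha i. RGS12 averaged 25.7 ± 1.56 CPM in knockout libraries against 18.1 ± 3.79 CPM in parental libraries (0.51, SE 0.18). RGS14 averaged 6.54 ± 0.402 CPM in knockout and 7.37 ± 0.814 CPM in parental libraries (-0.17, SE 0.14). RGS10, a short member of the class, averaged 8.70 ± 0.543 CPM in knockout and 11.7 ± 3.15 CPM in parental libraries (-0.43, SE 0.21). Without parental replicate 3, RGS12 was called as rising (0.30) and RGS10 as falling (-0.24). RGS22, a testis gene outside the main classes, had 0 knockout reads and 4, 3 and 1 parental reads. Against a limit of 3 reads over the group, RGS22 was at least 2.63-fold lower if the parental total is taken as exact.

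**Figure D4:**
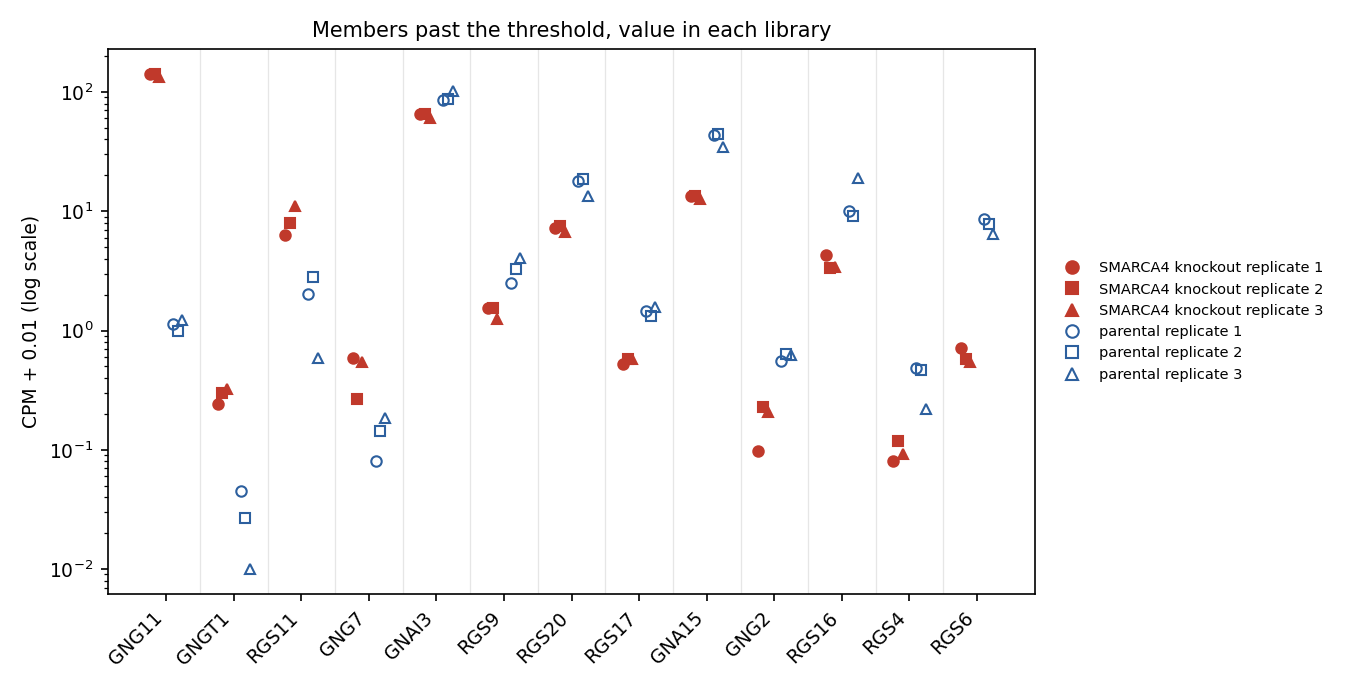
CPM plus 0.01 (y axis, log scale) in each of the 6 libraries for the 13 genes past the threshold, ordered from the largest rise to the largest fall, with knockout points left of parental points. No gene's groups overlap, and RGS11, RGS4 and RGS16 show parental replicate 3 away from the other parental libraries.

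Per length of pooled exon, GNB1 and GNB2 had the highest levels, with GNAS next. GNAS made up 38.2 ± 0.717% of the alpha sum in knockout and 33.1 ± 1.39% in parental libraries. This order depends on the length used. With the median transcript length GNAS came first, supplying 62.9% of a mean alpha sum of 646 CPM per kilobase in knockout and 60.2% of 610 in parental libraries. The mean beta sum was then 366 in knockout and 384 in parental libraries, and the mean RGS sum 70.8 in knockout and 93.3 in parental libraries. GNB1 and GNB2 supplied 47.3 ± 0.284% and 44.5 ± 0.555% of the beta sum in knockout libraries, and 41.0 ± 5.95% and 52.4 ± 4.70% in parental libraries. RGS genes summed to 44.0, 42.4 and 41.2 CPM per kilobase in knockout libraries, against 44.8, 44.6 and 73.4 in parental libraries, so that parental replicate 3 alone stood above the rest. RGS2 supplied 41.9 ± 0.689% of that sum in knockout and 34.5 ± 7.39% in parental libraries. Of the 7 called RGS genes, RGS20 supplied 5.24 ± 0.259% in knockout and 10.5 ± 4.06% in parental libraries, and RGS11 4.17 ± 1.31% in knockout and 0.80 ± 0.579% in parental libraries. RGS16 supplied 3.55 ± 0.404% in knockout and 9.47 ± 1.16% in parental libraries, or 2.13% in knockout and 5.51% in parental libraries with the transcript length.

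Some of these genes are known from other cell types. Of 9 blood cell markers, PTPRC had no read in any library, and 8 stayed under 1 CPM in every library. Their summed level was 16.0 to 16.8 CPM in knockout and 21.4 to 25.6 CPM in parental libraries, nearly all of it PPBP. Among the 5 tested blood markers 1 rose and 3 fell. Fibroblast markers summed to 53.3 to 57.9 CPM in knockout and 39.3 to 110 CPM in parental libraries, with 2 of 3 tested rising and 1 falling. LUM (6.18) and COL3A1 (5.00) rose, and COL1A1 (-1.46) fell. Endothelial and mural markers summed to 10.7 to 11.8 CPM in knockout and 8.04 to 12.1 CPM in parental libraries, with 1 of 3 tested rising. Neuronal markers summed to 87.2 to 96.0 CPM in knockout and 87.1 to 192 CPM in parental libraries, with 3 of 4 tested rising. Most of that sum was MAP2 (log2 fold change -1.11, not called), while SNAP25 (4.75), SYP (2.82) and ENO2 (0.77) rose. Of the epithelial markers 4 of 5 fell, KRT19 the most, at -5.40. Over all genes tested, 13.3% rose and 14.3% fell. No fibroblast, endothelial, mural or neuronal marker was at 0 in all libraries. The part of other cells in the values of the family was not tested.

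The proteins around the heterotrimer were described by 9 gene lists drawn up with earlier results of these data known. Of their 70 tested genes, 18 rose and 15 fell with 6 libraries, which is 47.1%, against 27.6% of all genes tested. When parental replicate 3 was left out, 31 of 71 rose and 27 fell, which is 81.7%, against 61.6% of all genes. Falling list genes numbered 7 when knockout replicate 1, 2 or 3 was left out. Of all genes, 15.1%, 14.6% and 15.2% were then called, rising and falling together. As the lists were drawn up with this comparison known, nothing is read from these shares. Adjusted p-values in what follows are from edgeR's quasi-likelihood test over all genes. As the list genes were chosen with earlier results known, these p-values describe the libraries and support no gene or list.

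cAMP is made by adenylyl cyclases and broken down by phosphodiesterases. Of 7 tested cyclase genes 0 rose and 1 fell (4 without parental replicate 3), and the median log2 fold change over them was -0.16. ADCY1 averaged 33.1 ± 3.66 CPM in knockout libraries against 53.4 ± 4.25 CPM in parental libraries (-0.69, SE 0.12, edgeR adjusted p = 0.00883), and its call was lost without knockout replicate 2. Of 8 tested phosphodiesterase genes 4 rose and 1 fell, with 6 and 1 without parental replicate 3. Calls over all genes tested were 27.6% with 6 libraries and 61.6% without parental replicate 3. PDE4B averaged 30.0 ± 0.904 CPM in knockout libraries against 7.16 ± 0.187 CPM in parental libraries (2.07, SE 0.10, edgeR adjusted p = 7.5e-05). PDE4D had the most reads of the list, at 581 ± 37.7 CPM in knockout libraries against 163 ± 19.2 CPM in parental libraries (1.83, SE 0.13, edgeR adjusted p = 0.000255). PDE7B had 1550, 1481 and 1466 reads in knockout libraries, against 39, 38 and 133 in parental libraries (4.42, SE 0.56, edgeR adjusted p = 0.00238). The remaining rising gene was PDE3A. The falling one was PDE7A, whose call was lost without any 1 library other than parental replicate 3.

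Downstream of cAMP, 0 of 11 tested genes of protein kinase A, its inhibitors and EPAC rose and 6 fell. Falling genes numbered 2, 3 and 2 without knockout replicate 1, 2 or 3, in that order, and without parental replicate 3 there were 8, with 2 rising. Calls over all genes tested moved likewise. Rising and falling together, they were 27.6% with 6 libraries, 15.1%, 14.6% and 15.2% without those knockout libraries, and 61.6% without parental replicate 3. PKIB, which encodes an inhibitor of the kinase, had 29, 35 and 39 reads in knockout libraries and 527, 498 and 829 in parental libraries (-4.16, SE 0.29, edgeR adjusted p = 0.000252). PKIA, another inhibitor, fell by 0.89 (SE 0.17, edgeR adjusted p = 0.0109), a call lost without knockout replicate 1 or 3. RAPGEF3, which encodes the cAMP sensor EPAC1, averaged 2.29 ± 0.132 CPM in knockout libraries against 10.4 ± 0.943 CPM in parental libraries (-2.18, SE 0.15, edgeR adjusted p = 0.000201). The list thus holds both sensors and inhibitors of the pathway among its falling genes.

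Among target genes of the cAMP-responsive factor CREB, 4 of 7 tested rose and 0 fell, and 6 rose and 1 fell without parental replicate 3. Over all genes tested, 27.6% and 61.6% were called in those settings. PPARGC1A, a coactivator of mitochondrial genes, averaged 40.9 ± 2.64 CPM in knockout libraries against 2.37 ± 0.670 CPM in parental libraries (4.11, SE 0.24, edgeR adjusted p = 0.000143). The orphan nuclear receptor gene NR4A3 averaged 8.88 ± 0.462 CPM in knockout and 1.15 ± 0.300 CPM in parental libraries (2.94, SE 0.23, edgeR adjusted p = 0.000355), and NR4A2 44.7 ± 2.68 CPM in knockout and 25.8 ± 4.12 CPM in parental libraries (0.80, SE 0.14, edgeR adjusted p = 0.00862). NR4A1 was the other rising gene, and it lost its call without knockout replicate 3. FOSB, at -1.66, did not pass.

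On the Gq side, 6 of 13 tested genes for phospholipase C beta, IP3 receptors and protein kinase C rose and 4 fell. Over all genes tested, 13.3% rose and 14.3% fell. Rising genes numbered 4 when knockout replicate 1, 2 or 3 was left out. Of all genes, 15.1%, 14.6% and 15.2% were then called, rising and falling together. ITPR1, an IP3-gated calcium channel, averaged 304 ± 51.2 CPM in knockout libraries against 33.4 ± 5.13 CPM in parental libraries (3.19, SE 0.19, edgeR adjusted p = 0.000143). The kinase genes PRKCH (-1.28, SE 0.12, edgeR adjusted p = 0.000596) and PRKCD (-1.42, SE 0.13, edgeR adjusted p = 0.000705) fell. The 4 phospholipase C beta genes, named after their values were seen, were split: PLCB1 (1.19) and PLCB4 (2.20) rose, PLCB2 (-2.11) fell, and PLCB3 (-0.18) did not pass. PLCB1 lost its call when any 1 knockout library was left out.

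The RhoGEFs with an RGS homology domain, effectors of alpha 12 and 13, gave 0 calls among 3 tested, against 27.6% of all genes. ARHGEF12 averaged 329 ± 23.1 CPM in knockout libraries against 275 ± 87.5 CPM in parental libraries (0.26, SE 0.25, edgeR adjusted p = 0.492), and its sign turned without parental replicate 3, at -0.03. Without that library 1 of the 3 was called as rising, where 61.6% of all genes were called.

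Of 7 tested genes for receptor kinases and arrestins, which desensitise receptors, 2 rose and 1 fell, with 5 and 2 without parental replicate 3. Calls over all genes were 27.6% and 61.6% in those settings. GRK5 averaged 18.1 ± 1.69 CPM in knockout and 9.39 ± 0.534 CPM in parental libraries (0.95, SE 0.13, edgeR adjusted p = 0.00269). GRK3 averaged 14.8 ± 0.493 CPM in knockout and 7.66 ± 1.17 CPM in parental libraries (0.95, SE 0.15, edgeR adjusted p = 0.0051). GRK2 fell by 0.34 (SE 0.09, edgeR adjusted p = 0.0367), a call that was lost without any 1 library other than parental replicate 3.

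G protein chaperones and non-receptor regulators had 1 rising and 1 falling gene among 8 tested, and 2 and 5 among 9 tested without parental replicate 3. Calls over all genes were 27.6% and 61.6% in those settings. GPSM3, which encodes a protein that binds GDP-bound alpha i, had 13, 24 and 23 reads in knockout libraries and 65, 71 and 98 in parental libraries (-1.95, SE 0.32, edgeR adjusted p = 0.00625). CCDC88A, which encodes the exchange factor girdin, rose by 0.99 (SE 0.22, edgeR adjusted p = 0.0189), with the call lost when any 1 knockout library or parental replicate 1 was left out. Among 6 tested genes of other proteins with an RGS domain 1 rose and 1 fell. AXIN2, a scaffold and target of WNT signalling, averaged 30.1 ± 0.758 CPM in knockout libraries against 3.71 ± 1.96 CPM in parental libraries (3.02, SE 0.45, edgeR adjusted p = 0.0046). The sorting nexin gene SNX13 fell by 0.45 (SE 0.09, edgeR adjusted p = 0.0121), a call lost when any 1 knockout library was left out.

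**Figure D5:**
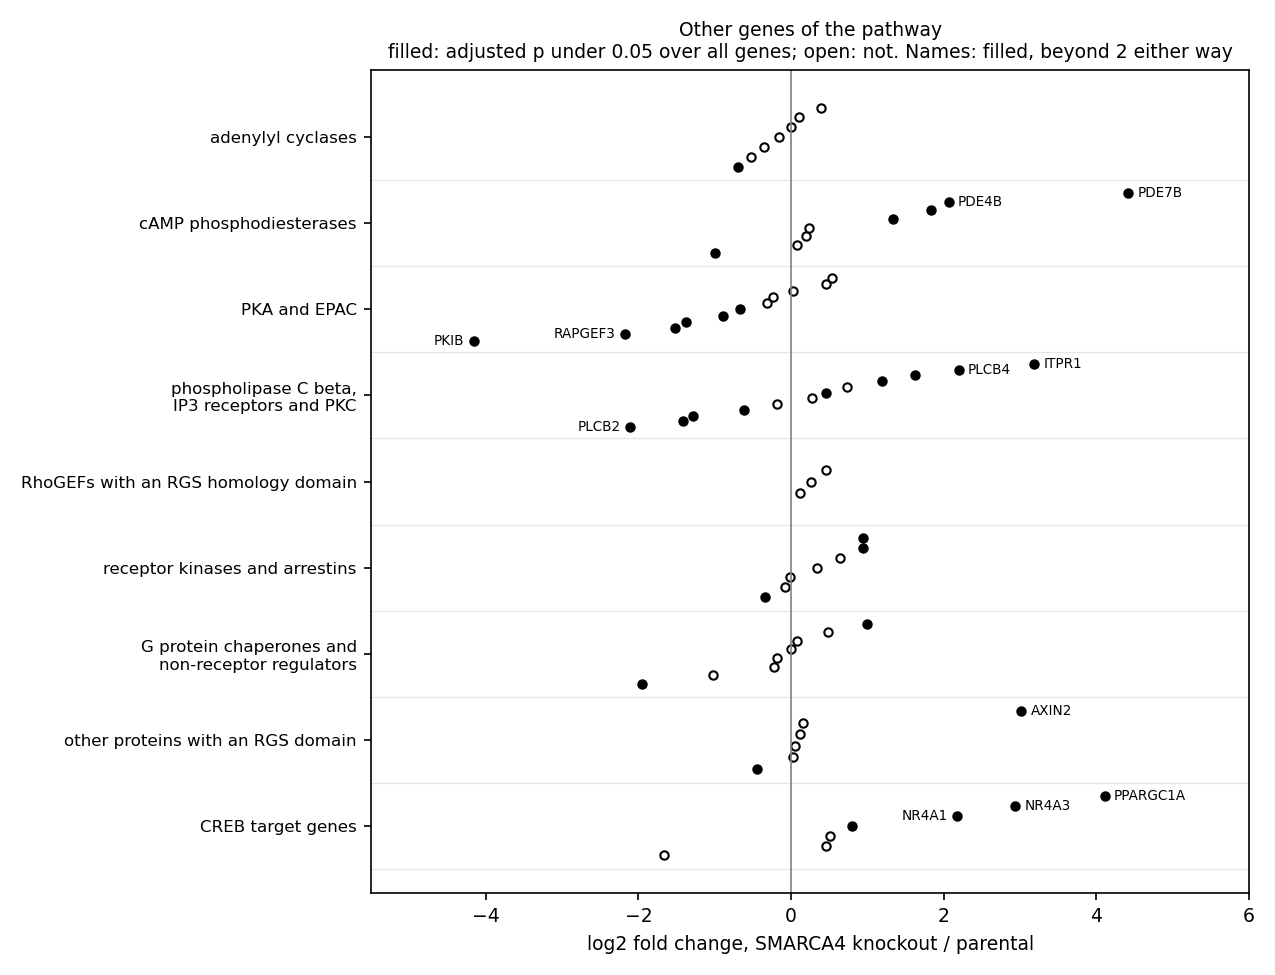
Log2 fold change of the SMARCA4 knockout over the parental group (x axis, log2 scale) for the tested genes reported from the 9 lists, 1 row per list; filled points passed the adjusted threshold of 0.05 over all genes, and those beyond 2 either way are named. The filled points of the phosphodiesterase and CREB target rows lie mostly to the right, with PDE7B at 4.42 and PPARGC1A at 4.11, and those of the kinase A and EPAC row lie to the left, with PKIB at -4.16.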

How the data were processed

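RNA-seq read counts per gene symbol were analysed in 3 SMARCA4 knockout and 3 parental libraries of H2122 cells. The values are raw counts as deposited, 1 file per library; the submitters' processing notes name TopHat2 2.1.1, HTSeq 0.11.0 and the build hg38, while neither strand setting nor annotation release is given in the sources used here. The 5 classes of unassigned reads, 13.8% to 15.3% of each file, were left out of library sizes and tests.

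Counts were filtered with filterByExpr, scaled by TMM and tested two-sided with edgeR 4.0.16 (robust quasi-likelihood, group as the only term) in R 4.3.3, with Benjamini-Hochberg adjustment over 17809 genes. No 2 libraries agreed within sampling noise. Since labels do not tell separate cultures, p-values measure the spread between these samples. Positions and exon lengths came from GENCODE 29 on GRCh38, and promoter sequences from RefSeq (GRCh38.p14). Levels per length divide CPM by pooled exon length. For RGS5, 2 gene records share the symbol and were pooled.

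Members and lists were chosen with earlier results of these data known. Named were all members past the threshold, the member with most reads in each class, members with reads in 1 group, and per list up to 3 genes past the threshold with the smallest adjusted p, or else the gene with most reads; the remaining members are given for completeness. The list symbols PDE4C and PER1 were not used here, and 1 list gene that remains in the counts is not reported here. Other settings tried were upper-quartile or RLE scaling, dropping the filter or asking for 1 CPM in 3 libraries, limma-voom (limma 3.58.1) or DESeq2 1.42.0 as the tool, a block for the replicate number, and leaving out each library.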

Additional observations from a re-analysis of the deposited data

How the results depend on the processing

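Over all genes tested, 4912 passed with 6 libraries and 2692 to 11325 when 1 library was left out, the highest count coming without parental replicate 3. Among members of the family the same settings gave 2 to 11 rising (4 with 6 libraries) and 5 to 15 falling (9 with 6 libraries). For the pathway lists they gave 14 to 31 rising (18 with 6 libraries) and 7 to 27 falling (15 with 6 libraries). GNG11, GNGT1, GNG2, GNA15, RGS6, RGS17 and RGS20 remained called without any 1 library, and the other 6 called genes were lost without at least 1 of them. The RGS2 log2 fold change, -0.13 with 6 libraries, ranged from -0.35 to 0.35 when 1 library was left out, and changed sign, to a called 0.35, without parental replicate 3. At least 1 CPM in 3 libraries left 2 rising members, since GNGT1, GNG7, GNG2 and RGS4 were then not tested. DESeq2 called 14 falling members, adding GNA14, GNB2, GNGT2, RGS18 and RGS3. RLE factors added GNB2, no filter added GNA14, GNGT2 and RGS18, and upper-quartile factors and limma-voom gave the same 13 genes. With the replicate number as a block, 3040 genes passed, with 2 members rising and 7 falling (GNAI3, GNG7, RGS9 and RGS11 lost) and 7 list genes falling. Same-numbered libraries did not deviate together, with correlations of -0.0818, 0.000327 and -0.1. No library correlated best with its own number, so the numbers are not taken as pairs. The median over all genes stayed between -0.05 and 0.07 in every setting. Genes with few reads, GNGT1, GNG7, GNG2 and RGS4 among them, are limited by counting error at this depth, and 3 libraries per group with 1 standing apart limit the rest.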
